A study of Mus musculus with 4 samples.

Results

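Cyclin-dependent kinase inhibitors are the proteins that hold the cell cycle engine back, and 6 of their genes were examined here in mouse bone marrow cells with and without a knockout of Mel18. The genes were Cdkn1a, Cdkn1b and Cdkn1c of the Cip/Kip group, Cdkn2c and Cdkn2d of the Ink4 group, and Cdkn3. They were taken by symbol from a listed set of 6, and all 6 had a row among the 15607 genes of the deposited table. The 2 remaining Ink4 genes, Cdkn2a and Cdkn2b, had no row in the table used here and were not analysed. A row in that table had at least 24 counts over the 4 libraries and at least 10 in 1 of them. Without a row no level can be given for either gene, and nothing can be said of their change. Mtap, the gene beside that locus, had a row with 39.5 ± 6.27 counts per 1000000 (CPM) for wild type and 41.1 ± 2.24 CPM for knockout (SD, n = 2).

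Cells pass from G1 into S phase when D-type cyclins with Cdk4 or Cdk6, and then cyclin E with Cdk2, phosphorylate the retinoblastoma protein and release E2F factors. Ink4 proteins bind Cdk4 and Cdk6 and keep them from D cyclins, whereas Cip/Kip proteins bind cyclin and kinase together and chiefly restrain Cdk2 complexes. In blood stem cells several of these inhibitors are known for keeping cells quiescent, and Polycomb repressive complex PRC1, of which Mel18 and its homologue Bmi1 are alternative subunits, is known for silencing the locus of Cdkn2a and Cdkn2b.

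RNA-seq libraries came from lineage-negative bone marrow cells, a sorted fraction from which cells bearing mature blood markers are removed. The sample titles call the cells HSCs, short for hematopoietic stem cells. The 4 libraries were from separate mice per the labels, mice 1 and 3 being wild type and mice 5 and 6 carrying a conditional Mel18 knockout in the hematopoietic system. The labels state neither the driver of the deletion, nor the deleted exons, nor the age of the mice. Values below are given in the order of mice 1, 3, 5 and 6. Total counts ran from 35599564 to 46240864 per library.

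The progenitor marker Kit was at 195 to 238 CPM in the 4 libraries and Cd34 at 128 to 183 CPM, while markers of maturing neutrophils were also abundant, with S100a8 at 2372 to 4777 CPM. Mel18 is encoded by Pcgf2, whose count did not drop with the knockout label, with 210 and 158 counts for the wild type pair against 303 and 321 for the knockout pair. Reads from exons outside the deletion count towards this gene, so the count does not check the genotype, and every direction here is between libraries by label.

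None of the 6 inhibitor genes passed the test between genotypes, and 5 of the 6 had a lower mean level in knockout. The edgeR quasi-likelihood test with Benjamini-Hochberg adjustment over all genes called 0 of the 6 at an adjusted p under 0.05, and it called 0.135% of all genes. At an unadjusted p under 0.05 it had 2 of the 6, Cdkn2d and Cdkn1b, against 8.89% of all genes. DESeq2 and the edgeR likelihood ratio test each called 1 of the 6, Cdkn2d, against 1.4% and 1.13% of all genes. No member was called by limma voom, with DESeq2 size factors, with total counts, without robust estimation or with a filter of 1 CPM in 2 libraries, which called 0%, 0.128%, 0.128%, 0.0256% and 0.0783% of all genes. For 3 of the 6, Cdkn2d, Cdkn1b and Cdkn3, the groups did not overlap and knockout was the lower, as for 20.9% of all genes. Non-overlapping groups with knockout the higher were found for 0 of the 6 and 21.4% of all genes. The median log2 fold change of the 6 was -0.19, where the median of all genes was -0.0053. A count of 5 in 6 below 0 stands beside 51.2% of all genes. In bulk RNA, fewer cells of a type and less RNA per cell cannot be told apart.

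**Figure D1:**
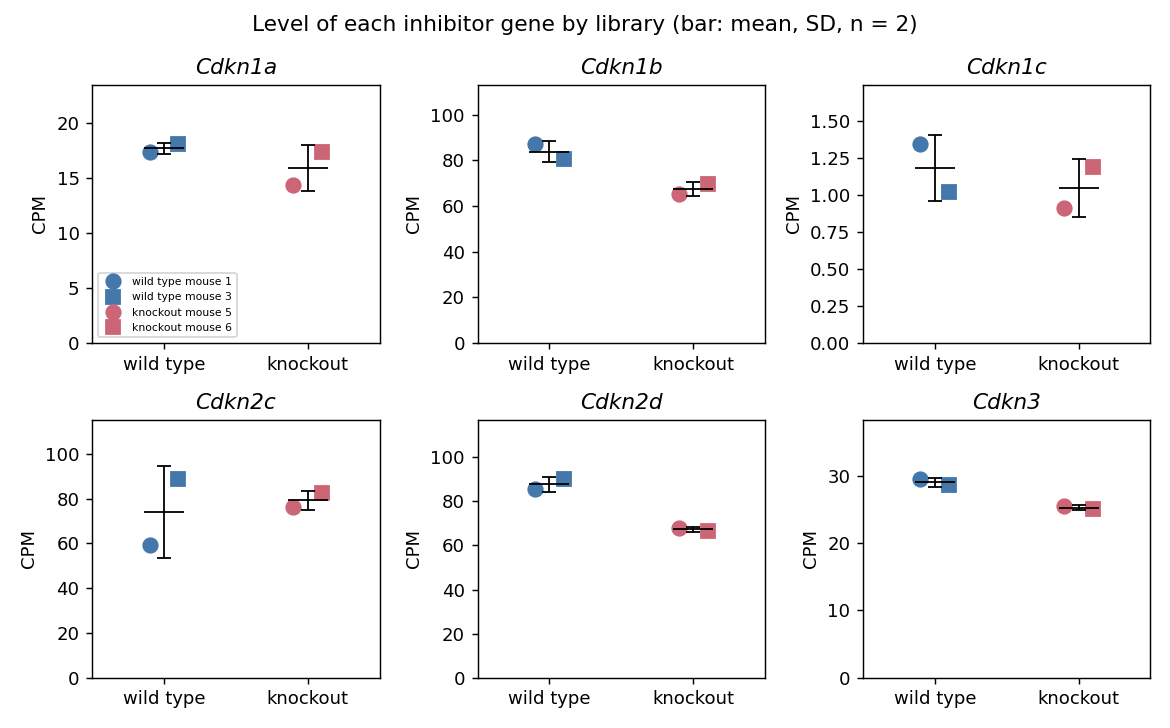
Level of each of the 6 inhibitor genes in CPM (vertical axes, from 0) in wild type mice 1 and 3 and knockout mice 5 and 6, with black bars for the mean and SD of 2 libraries. Cdkn2d, Cdkn1b and Cdkn3 have both knockout points below both wild type points, and Cdkn2c has its lowest point, 59.4 CPM, in wild type mouse 1.

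Levels of different genes were compared as RPKM, the CPM divided by exon length in kilobases. Cdkn2d was the most abundant transcript of the family, at 42.2 to 57.2 RPKM over the 4 libraries. Cdkn2c followed at 22.1 to 33.0 RPKM and Cdkn1b at 14.4 to 19.1 RPKM. Cdkn3 was at 10.5 to 12.4 RPKM, Cdkn1a at 4.05 to 5.07 RPKM and Cdkn1c at 0.446 to 0.657 RPKM. No neighbours in this order had overlapping ranges, and the order was the same in each of the 4 libraries. The Ink4 pair together made up 76.4 and 90.3 RPKM in wild type and 71.7 and 72.9 RPKM in knockout, against 24.6 and 23.3, and 18.9 and 20.8 RPKM, for the 3 Cip/Kip genes. By share of the family's summed RPKM, Cdkn2d made up 47.8% and 45.6% for wild type, and 42.7% and 40.5% for knockout. The summed RPKM was 113 and 126 in wild type and 101 and 104 in knockout. All positions in the order were the same with the authors' deposited log2 RPKM.

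**Figure D2:**
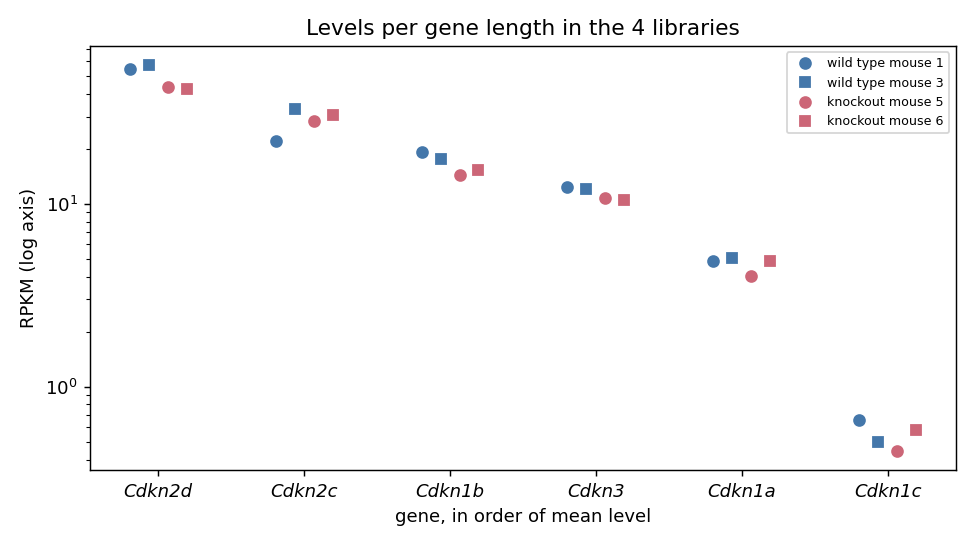
RPKM of the 6 inhibitor genes (log axis) in each library, in order of mean level. Every gene lies above the next in all 4 libraries, from Cdkn2d at 42.2 RPKM or more to Cdkn1c at 0.657 RPKM or less.

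Among the Ink4 genes, Cdkn2d encodes p19Ink4d, an inhibitor of Cdk4 and Cdk6 that in mouse marrow is known from blood stem cells and from maturing megakaryocytes. Its counts were 3125 and 3262 for wild type, and 3149 and 2968 for knockout, whose libraries were deeper. On the CPM scale wild type had 85.4 and 90.1, and knockout had 68.2 and 66.5. The knockout values were close together and below both wild type values, and no 95% counting interval of a knockout library (at most 70.6 CPM) reached one of a wild type library (at least 82.5 CPM). Such intervals cover counting error only, not the spread between mice. Group means were 87.8 ± 3.28 and 67.3 ± 1.20 CPM (SD, n = 2), and the log2 fold change was -0.38 ± 0.075 (SE). On the linear scale the fitted difference was -23.3%, with a 95% interval from -32.1% to -13.4%. The edgeR quasi-likelihood test gave an adjusted p of 0.170, and by its p the gene ranked 114 of 15607.

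Cdkn2d was the inhibitor whose call depended on the test. The authors' deposited table lists it at -0.38 with an adjusted p of 0.0362, and 1.13% of all genes pass there. DESeq2 gave an adjusted p of 0.0201 and the edgeR likelihood ratio test 0.0361, whereas limma voom gave 0.253. Its log2 fold change stayed between -0.42 and -0.35 when each library was left out in turn. Without wild type mouse 1 or mouse 3 the quasi-likelihood adjusted p was 0.0244 and 0.0299, and without knockout mouse 5 or mouse 6 it was 1.00 and 0.836. A fit with 1 library in a group takes its spread from the complete pair alone and assumes that the lone library varies alike. Those 4 fits called 1.85%, 5.48%, 0.032% and 0.109% of all genes in that order.

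Neutrophil markers stood lower in the same knockout libraries. Of 18 listed, all 18 were measured and none was at 0 in any library. For 17 the groups did not overlap with knockout the lower, against 20.9% of all genes. Their summed level was 21094 and 29870 CPM for wild type, then 14940 and 15192 CPM for knockout. The markers Fpr2, Retnlg and Cxcr2 were the 3 that fell in the quasi-likelihood test over all genes (adjusted p = 0.0353, 0.0449 and 0.0449), and they are named after their values were seen. At an unadjusted p under 0.05 there were 17, all lower, and 12 pass as lower in the authors' deposited table. Over all genes those shares were 8.89% and 1.13%, in either direction. Within wild type, mice 1 and 3, the neutrophil sum was at 104% and 147% of the mean of the 4 libraries. Cdkn2d was at 110% and 116% there, and Cdkn1b went the other way, at 115% and 106%. The part of neutrophil RNA in the values of Cdkn2d and Cdkn1b was not tested.

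Cdkn2c, which encodes p18Ink4c, an inhibitor of Cdk4 and Cdk6 known in mice for limiting self-renewal of blood stem cells, had no such separation. Its levels were 59.4 and 88.7 CPM for wild type, then 76.4 and 82.4 CPM for knockout. The knockout pair lay between the wild type mice, whose coefficient of variation of 28.0% was the largest of any member in either genotype. The wild type counting intervals, 56.9 to 61.9 CPM and 85.7 to 91.9 CPM, did not overlap, so the gap between these mice was larger than counting error. Means of 74.1 ± 20.8 CPM for wild type and 79.4 ± 4.23 CPM for knockout (SD, n = 2) followed. The log2 fold change, 0.10 ± 0.20 (SE), had a 95% interval from -0.40 to 0.60 and missed the threshold (quasi-likelihood adjusted p = 0.889). Which wild type mouse was left out set its sign. Without wild type mouse 1 the log2 fold change was -0.16, and without wild type mouse 3 it was 0.41.

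Genes of S phase and of G2 and M phase were also lowest in wild type mouse 1. The summed level of 30 S phase genes was 6764 CPM in mouse 1, 7865 CPM in mouse 3, 8172 CPM in mouse 5 and 7827 CPM in mouse 6. For 29 genes of G2 and M phase the sums were 5091, 6143, 6069 and 5937 CPM in that order. Being lowest in mouse 1 was not particular to phase genes. Relative to the mean of the 4 libraries, its summed erythroid markers, which share no gene with the phase lists, were at 83.1%, the lowest library. Inhibitor turnover genes were at 89.4% and CDKs and cyclins at 91.9%, also the lowest library. Both of those lists share genes with the phase lists, Pcna and Ccnb1 among them, so they are not separate from the phase sums. The phase sums of mouse 1 were at 88.3% and 87.6%, and its stem cell markers were at 117%, the highest library. The part of cell cycle phase in the level of Cdkn2c was not tested.

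**Figure D3:**
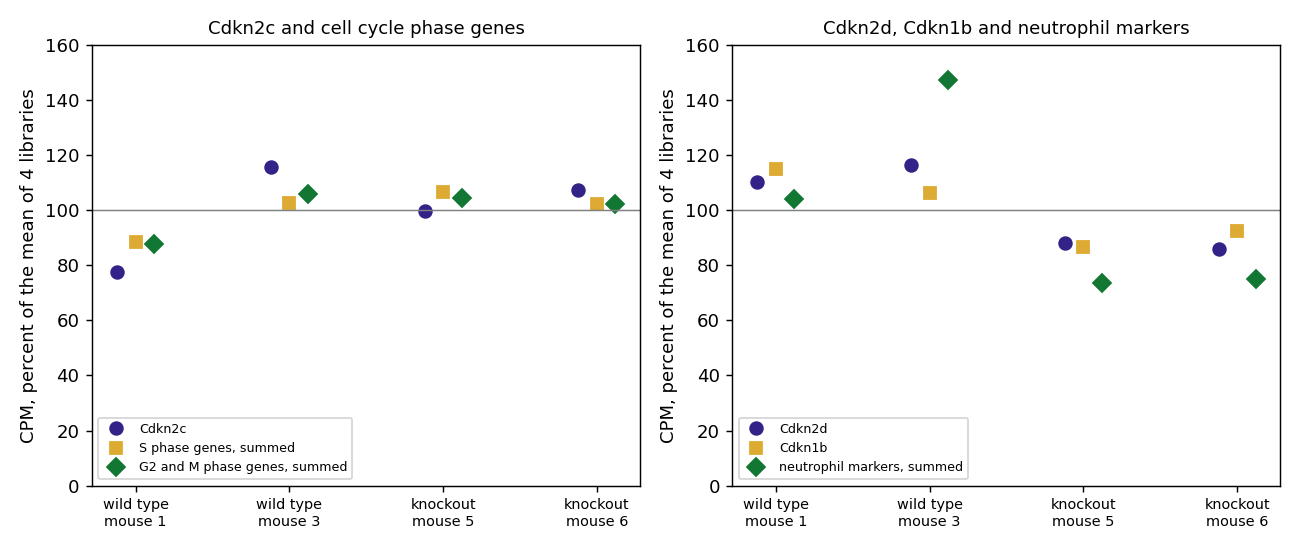
CPM as a percentage of the mean of the 4 libraries (vertical axis, from 0) for Cdkn2c beside summed S phase and G2 and M phase genes, and for Cdkn2d and Cdkn1b beside summed neutrophil markers. Wild type mouse 1 is lowest for Cdkn2c (77.4%) and both phase sums (88.3% and 87.6%). Both knockout mice are below 100% for Cdkn2d, Cdkn1b and the neutrophil sum. From wild type mouse 1 to mouse 3 the neutrophil sum rises (104% to 147%), while Cdkn1b falls (115% to 106%) and Cdkn2d rises less (110% to 116%). Summed erythroid markers, not drawn, are also lowest in wild type mouse 1 (83.1%).

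The Ink4 genes were also set against each other within each library. The RPKM of Cdkn2d was 2.46 and 1.73 times that of Cdkn2c for wild type, and 1.52 and 1.38 times for knockout. The knockout ratios were the lower pair, and the means were 2.09 ± 0.511 and 1.45 ± 0.103 (SD, n = 2). The exact two-sided permutation test gave p = 0.333, which is the smallest p that 2 against 2 libraries allow.

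Among the Cip/Kip genes, Cdkn1b encodes p27Kip1, the inhibitor of cyclin E with Cdk2 that rises as cells leave the cycle and is degraded after ubiquitination by the Skp2 ligase. Wild type had 3182 and 2915 counts, and knockout had 3026 and 3118, or 87.0 and 80.5 CPM against 65.5 and 69.8 CPM. Knockout was the lower pair, and the counting intervals of the groups did not meet (at most 72.3 CPM in knockout, at least 77.6 CPM in wild type). These again leave out the spread between mice. Group means were 83.7 ± 4.59 and 67.7 ± 3.06 CPM (SD, n = 2). The log2 fold change of -0.31 ± 0.081 (SE), a difference of -19.2% with a 95% interval from -29.2% to -7.85%, missed the threshold at a quasi-likelihood adjusted p of 0.314. In the authors' deposited table its adjusted p is 0.227. Over the other tests, scalings and the filter its adjusted p ran from 0.204 to 0.397. Without wild type mouse 3 the log2 fold change was -0.37, and without wild type mouse 1 it was -0.25. Without knockout mouse 5 it was -0.27, and without knockout mouse 6 it was -0.35.

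Cdkn1a encodes p21Cip1, the inhibitor best known as a transcriptional target of p53. Wild type had 17.3 and 18.0 CPM, and knockout had 14.4 and 17.3 CPM. Mouse 5 was the low library, and mouse 6 was level with wild type mouse 1. Group means were 17.7 ± 0.495 and 15.9 ± 2.08 CPM (SD, n = 2), giving a log2 fold change of -0.16 ± 0.13 (SE; quasi-likelihood adjusted p = 0.719). The 95% interval of the difference ran from -27.4% to 10.8%. Without knockout mouse 5 the log2 fold change was -0.033, and without knockout mouse 6 it was -0.30.

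Cdkn1c encodes p57Kip2, an imprinted Cip/Kip inhibitor expressed from the maternal allele and known in mice for holding blood stem cells quiescent. Reads were few, with counts of 49 and 37 for wild type, and 42 and 53 for knockout. These were 1.34 and 1.02 CPM, then 0.909 and 1.19 CPM, with overlapping groups. All 4 counting intervals overlapped, from 0.655 CPM at the lowest bound to 1.77 CPM at the highest. The log2 fold change was -0.17 ± 0.30 (SE; quasi-likelihood adjusted p = 0.869), and its 95% interval ran from -0.88 to 0.53. With counts this low and 2 libraries per group, the interval holds differences in either direction. Without wild type mouse 1 or knockout mouse 5 its sign turned, to 0.035 and 0.0025.

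Exon bases of Cdkn1c are shared with an antisense gene, and the library chemistry does not mark strand. GENCODE M21 places Gm44732 on the opposite strand over 625 of the 2039 exon bases of Cdkn1c, or 30.7%, so reads there cannot be assigned to one of them by strand. A gene of unsettled type on the opposite strand, AC167363.2, shares 273 of the 3553 exon bases of Cdkn1a. Neither overlapping gene was analysed here, and for the other members the annotation had no overlapping gene.

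Cdkn3, in spite of its symbol, encodes a phosphatase that removes an activating phosphate from Cdk2 and Cdk1, and its transcript is known to peak in dividing cells. Wild type mice had 29.5 and 28.6 CPM, and knockout mice had 25.5 and 25.0 CPM. The libraries of each genotype were close together and the groups did not overlap. Their means were 29.0 ± 0.649 and 25.2 ± 0.357 CPM (SD, n = 2). The log2 fold change, -0.20 ± 0.092 (SE), missed the threshold (quasi-likelihood adjusted p = 0.583), and the 95% interval of the difference ran from -25.1% to 1.06%. Its value stayed between -0.23 and -0.18 when each library was left out. The median log2 fold change of G2 and M phase genes was 0.073 in the same comparison. Of these 29, 1 had non-overlapping groups with knockout the lower, against 20.9% of all genes.

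**Figure D4:**
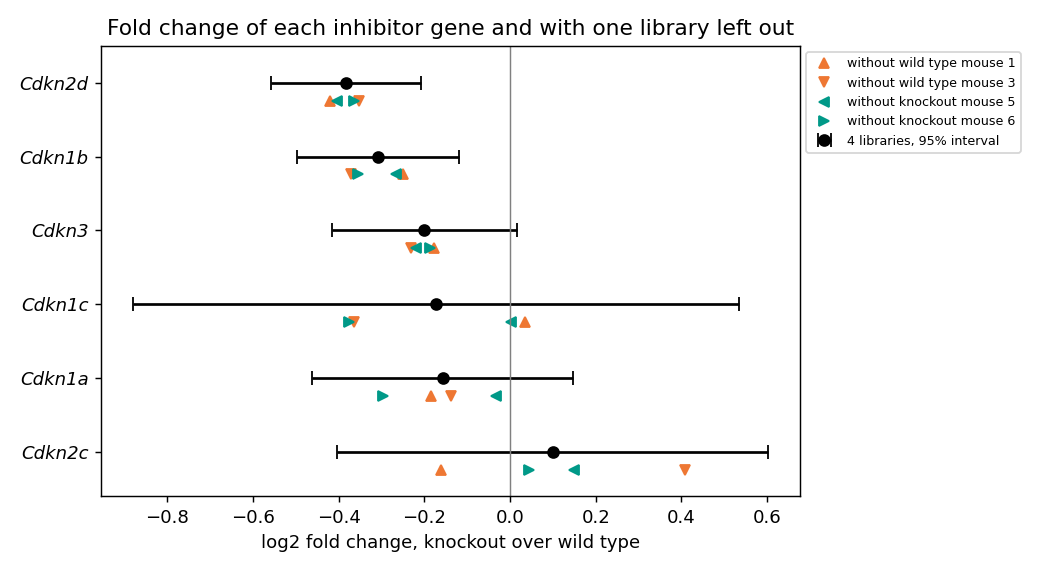
Log2 fold change of each inhibitor gene, knockout over wild type (horizontal axis), with its 95% interval from the 4 libraries (black) and the value with each library left out (triangles). The intervals of Cdkn2d and Cdkn1b lie below 0 before adjustment for multiple tests, and the triangles of Cdkn2c span -0.16 to 0.41.

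The start-site sequences of the members whose groups did not overlap are shown because these 3 genes had both knockout values under both wild type values. RefSeq promoter entries on GRCm38.p6, the assembly of mm10, were found for 5 of the 6 genes, not for Cdkn1c. The 250 bases upstream of the start were searched on both strands for the CCAAT box (CCAAT), which factor NF-Y binds, and the GC box (GGGCGG), which Sp1 binds. Capitals mark either motif or its reverse complement. Sequences are written 5′ to 3′ on the strand of the gene.
Cdkn1b, chr6:134920151-134920400, plus strand: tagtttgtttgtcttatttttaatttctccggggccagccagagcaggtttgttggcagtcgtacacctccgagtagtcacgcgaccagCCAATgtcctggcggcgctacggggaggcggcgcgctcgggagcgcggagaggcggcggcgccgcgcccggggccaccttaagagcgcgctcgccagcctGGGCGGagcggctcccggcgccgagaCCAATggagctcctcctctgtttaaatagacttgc
Cdkn3, chr14:46760291-46760540, plus strand: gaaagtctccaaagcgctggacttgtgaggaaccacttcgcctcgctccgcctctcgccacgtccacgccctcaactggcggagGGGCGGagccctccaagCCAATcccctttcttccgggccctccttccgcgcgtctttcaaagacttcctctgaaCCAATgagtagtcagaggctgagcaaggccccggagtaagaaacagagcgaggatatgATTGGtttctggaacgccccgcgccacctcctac
Cdkn2d, chr9:21291408-21291459, minus strand: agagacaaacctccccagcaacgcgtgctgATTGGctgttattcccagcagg

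For Cdkn2d only the outer 52 bases of the window are printed, since 198 of the 250 lie in GENCODE exons of other Cdkn2d transcripts. The CCAAT box stood 2 times upstream of Cdkn1b, at -161 and -35 from the start site, and 3 times upstream of Cdkn3, at -149, -92 and -34. In Cdkn2d it stood 1 time, at -220. Neither Cdkn2c window and neither Cdkn1a window held it. Of 32851 RefSeq promoter windows of this length, 33.8% held a CCAAT box and 32.7% a GC box. The GC box stood 1 time in the windows of Cdkn1b and Cdkn3 and 3 times in that of Cdkn2d, at -118, -106 and -38. Those of Cdkn2d all lie in the exonic bases that are not printed. It also stood 3 times in 1 window of Cdkn2c and 2 times in 1 window of Cdkn1a. All 250 bases of that Cdkn2c window lie in GENCODE exons of Cdkn2c. A cell cycle homology region (TTTGAA), an element of genes repressed outside G2 and M phase, was found 1 time upstream of Cdkn3 and in 16.0% of all windows. The forkhead motif GTAAACA and the E2F motif TTTGGCGC were in none of these windows, and in 3.17% and 0.417% of all windows. These matches describe letters in a window and do not show binding.

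The kinases and cyclins that the inhibitors act on did not pass the test. Of 13 listed, 12 were measured, 0 were called by quasi-likelihood in either direction (0 also at an unadjusted p under 0.05), and their median log2 fold change was 0.063. Cdk4 had means of 389 ± 10.7 and 424 ± 3.26 CPM, and Cdk6 of 322 ± 1.87 and 353 ± 12.2 CPM (wild type, then knockout; SD, n = 2). For both kinases the knockout pair was the higher without overlap, as for 21.4% of all genes, with quasi-likelihood adjusted p of 0.691 and 0.661. For Ccne1, the gene of cyclin E1, the log2 value was 0.22 (adjusted p = 0.650). The retinoblastoma family and E2F list, 17 of 17 measured, had 0 calls and a median of 0.0043. E2f4, the main E2F of resting cells, had 0.22 and Lin9 and Lin52, subunits of the DREAM complex that represses cell cycle genes, had -0.17 and -0.14 (adjusted p = 0.616, 0.642 and 0.767).

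The machinery that ubiquitinates or phosphorylates Cip/Kip proteins had 17 of 18 symbols measured and 0 calls (0 at an unadjusted p under 0.05), with a median log2 fold change of 0.075. The groups did not overlap for some of the 17, with knockout the higher in 7 and the lower in 1. Over all genes the shares were 21.4% higher and 20.9% lower. Those with the smallest p were Uhmk1, a kinase of p27Kip1, at 0.19, Ddb1, the adaptor of the Cul4 ligases that degrade p21Cip1, at 0.26, and Rnf123, the catalytic subunit of a cytoplasmic ligase of p27Kip1, at 0.22 (quasi-likelihood adjusted p = 0.592, 0.593 and 0.593). These are values of RNA, and protein turnover was not measured.

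Regulators of inhibitor transcription had 25 of 26 symbols measured, 0 calls and a median log2 fold change of -0.039. At an unadjusted p under 0.05 there were 2, both higher in knockout. They were Gfi1b, a repressor of erythroid and megakaryocytic cells (0.38, quasi-likelihood adjusted p = 0.411), and Kmt2a, the histone methyltransferase MLL1 (0.23, adjusted p = 0.458). Egr1, an immediate early factor, had -0.32 (adjusted p = 0.569). Bmi1 had means of 34.8 ± 3.93 and 36.4 ± 2.91 CPM (SD, n = 2; adjusted p = 0.870).

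Other p53 responsive genes were listed beside Cdkn1a. Of 21 listed, 20 were measured and 1 fell, the antiproliferative gene Btg2, with means of 174 ± 1.27 and 104 ± 7.87 CPM (SD, n = 2). Its log2 fold change was -0.74 (quasi-likelihood adjusted p = 0.0477). Phlda3, a p53 target that restrains Akt, had 0.83 and Trp53inp1 had -0.46, neither passing (adjusted p = 0.209 and 0.420). The list had a median of -0.057. At an unadjusted p under 0.05 the quasi-likelihood test had 5 lower and 1 higher of the 20, against 8.89% of all genes in either direction. For 9 genes the groups did not overlap with knockout the lower, and for 4 with knockout the higher. Over all genes those shares were 20.9% and 21.4%.

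Around Cdkn1c, 10 of 14 listed genes of the imprinted Kcnq1 domain were measured and 0 were called, with 1 at an unadjusted p under 0.05. That gene was Kcnq1ot1, the long noncoding RNA from the paternal chromosome that silences Cdkn1c there. Its means were 4.63 ± 0.103 and 7.07 ± 0.451 CPM (SD, n = 2), knockout being the higher pair, and the log2 fold change, 0.61 ± 0.17 (SE), missed the threshold (quasi-likelihood adjusted p = 0.354). Cdkn1c itself overlapped between genotypes. The domain genes Cars, of cysteinyl-tRNA synthetase, and Cd81, of a tetraspanin, had 0.24 and 0.18 (adjusted p = 0.583 and 0.704). The exon overlap of Kcnq1ot1 with the opposite-strand Kcnq1 was not measured here, and reads in any shared bases cannot be assigned by strand.

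Cell cycle phase genes were listed as well, and none passed the test. S phase genes, 30 of 30 measured, had 0 calls and a median log2 fold change of 0.089. For 13 of them both knockout libraries were above both wild type libraries, and for 1 they were below. Over all genes those shares were 21.4% and 20.9%. Cdc6 and Cdt1, which load the replicative helicase, and its subunit Mcm4 had 0.22, 0.19 and 0.20 (quasi-likelihood adjusted p = 0.601, 0.632 and 0.632). Of 30 genes of G2 and M phase 29 were measured and 0 were called, with 5 above and 1 below. Hmmr, Bub1 and Ect2, genes of the spindle, its checkpoint and cytokinesis, had 0.20, 0.15 and 0.11 (adjusted p = 0.620, 0.632 and 0.655).

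**Figure D5:**
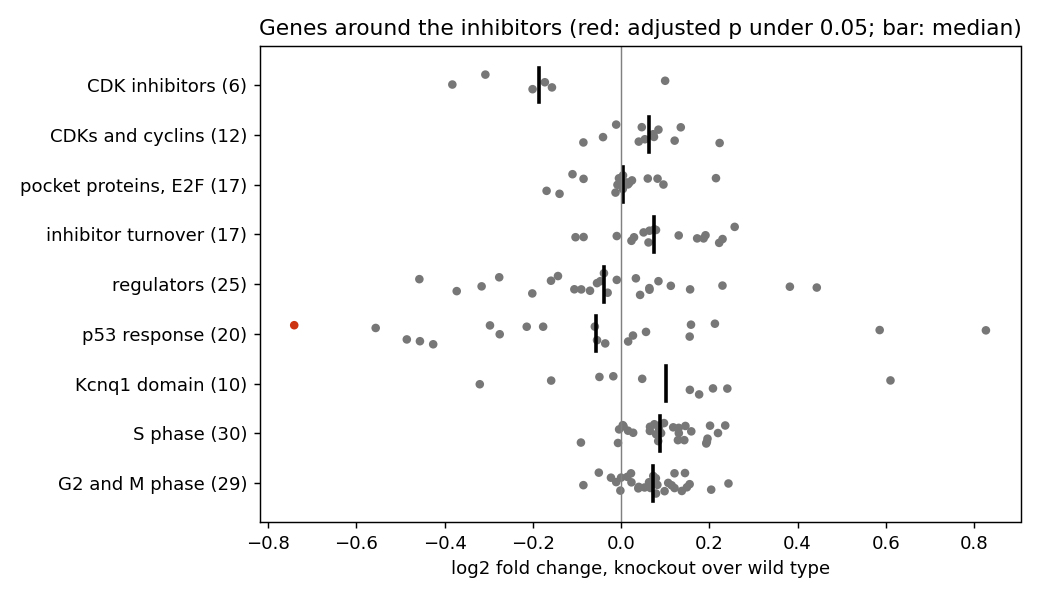
Log2 fold change, knockout over wild type (horizontal axis), of the measured genes in each list, with the number measured in parentheses, a black bar at the list's median and red for an adjusted p under 0.05. The inhibitors have a median of -0.19, the other lists have medians between -0.057 and 0.10, and Btg2 is the one red point.

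Markers of other cell types that the sorted fraction could hold were listed beside the inhibitors. Megakaryocyte markers, 16 of 16 measured, had a summed level of 541 and 487 CPM for wild type, then 669 and 608 CPM for knockout. Of the 16, 13 were the higher in knockout without overlap, against 21.4% of all genes. The platelet chemokines Ppbp and Pf4 rose, with log2 fold changes of 1.62 and 0.92 (quasi-likelihood adjusted p = 0.0160 and 0.0477), 9 of the 16 were higher at an unadjusted p under 0.05, and 6 pass as higher in the authors' deposited table. Stroma and endothelium markers, 17 of 18 measured, had sums of 147 and 259 CPM, then 773 and 730 CPM, with Lum at 0 counts in wild type mouse 1. Their median log2 fold change was 1.36, and 12 of the 17 were the higher in knockout without overlap and 2 the lower. The quasi-likelihood test called 0 of the 17, with 7 higher at an unadjusted p under 0.05, and 5 pass as higher in the authors' deposited table. Over all genes 8.89% had an unadjusted p under 0.05 and 1.13% pass in the authors' deposited table, in either direction. Stem cell markers, 18 of 19 measured, had sums of 879, 661, 753 and 706 CPM in mice 1, 3, 5 and 6, which overlapped between genotypes, and 0 were called, with 1 lower at an unadjusted p under 0.05. Monocyte and macrophage (14 of 14 measured), erythroid (16 of 16), B lineage (14 of 14) and T and NK cell (15 of 15) markers had 0 quasi-likelihood calls each, with median log2 fold changes of -0.20, 0.23, -0.28 and -0.33. At an unadjusted p under 0.05 the edgeR quasi-likelihood test had 1 lower monocyte and macrophage marker, 2 higher erythroid, 4 lower B lineage and 0 T and NK cell markers, and the authors' deposited table passes 0 of each list. The part of these cell types in the inhibitor values was not tested.

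The genes most like each inhibitor over the 4 libraries were found by the root mean square difference of log2 CPM, each gene centred on its own mean, among 9218 other named genes with a mean of at least 10 CPM. For Cdkn2d they were Trim12c and Bmf, at 0.014 and 0.019 log2 units. For Cdkn1b they were Nabp1 and Ube2b, at 0.013 and 0.015. Cdkn2c was closest to Ptprj and Wdcp, at 0.013 and 0.024, and Cdkn3 to Homer3 and Fam107b, at 0.0081 and 0.0085. Cdkn1a was closest to Dnajb6 and Pfdn2, at 0.0048 and 0.0074, and Cdkn1c to Mllt6 and Rnf138, at 0.044 and 0.047. With only 4 libraries many genes lie near, and 33 were within 0.05 of Cdkn2d, 73 of Cdkn1b, 108 of Cdkn1a and 311 of Cdkn3. For Cdkn2c there were 9 and for Cdkn1c 3.

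For reference, the members lie on mm10 at chromosome 17, 29090976 to 29100727 (Cdkn1a), chromosome 6, 134920401 to 134925513 (Cdkn1b), and chromosome 7, 143458339 to 143461050 (Cdkn1c). Cdkn2c lies on chromosome 4, 109660876 to 109667189, Cdkn2d on chromosome 9, 21288410 to 21291407, and Cdkn3 on chromosome 14, 46760541 to 46771669. The counts cover all annotated exons of each gene. Symbols Cdkn2aip and Cdkn2aipnl also begin with these letters and are not kinase inhibitors; their log2 fold changes were -0.13 and -0.044 (quasi-likelihood adjusted p = 0.691 and 0.868).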

How the data were processed

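The authors deposited 1 gene table with whole-number read counts per gene, not normalized, for the 4 libraries, and their own log2 CPM and log2 RPKM per library. Per the file headers it also holds the authors' log2 fold change, p-value and false discovery rate (an adjusted p) for knockout against wild type. Per the submitters' processing notes, the build was mm10 and the tools included STAR 2.5, Trimmomatic 0.40, edgeR 3.28.1, FastQC and MultiQC 0.11.5. RNA was processed with a SMART-Seq low-input kit and Nextera XT, per the labels' protocols. For the read counter, its annotation release and its strand setting, the answer is not given in the sources used here. A further 2 columns of per-sample values match no labelled sample and were not used.

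Counts were fitted as deposited for all 15607 genes in R 4.3.3 with edgeR 4.0.16 (robust quasi-likelihood F test, TMM scaling, Benjamini-Hochberg over all genes, threshold 0.05), leaving 2 residual degrees of freedom. SEs come from the F statistic, 95% intervals from the t distribution on the moderated degrees of freedom, and counting intervals are exact Poisson, covering counting error only. CPM used TMM-scaled totals, and RPKM divides by the table's exon length. The procedure was tested on simulated data, where it recovered 60.0% of genes changed 1.5-fold and 86.7% of genes changed 2-fold. Changes under 1.5-fold, such as those fitted for the members, were not simulated. Gene coordinates matched GENCODE M21 for 15135 genes, all 6 members among them. Alternatives used DESeq2 1.42.0, limma 3.58.1 voom, the edgeR likelihood ratio test, 2 other scalings, no robust estimation, a filter of 1 CPM in 2 libraries, and removal of each library.

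The members and lists were chosen with earlier results of these data known. The rule for other named genes took up to 3 of the smallest p from each pathway list and the 2 most alike genes per member.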

Additional observations from a re-analysis of the deposited data

How the results depend on the processing

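The count of inhibitor genes called was 0 with 4 libraries and quasi-likelihood, 1 with the DESeq2 Wald test and 1 with the edgeR likelihood ratio test, Cdkn2d in both (log2 fold change -0.38 and -0.38, adjusted p = 0.0201 and 0.0361). Over all genes the shares called were 0.135%, 1.4% and 1.13% in that order. With DESeq2 size factors, total counts, limma voom, no robust estimation and the filter of 1 CPM in 2 libraries the count of inhibitor genes was 0. With each library left out the count ran from 0 to 3, being 1 without wild type mouse 1 and 3 without wild type mouse 3 (Cdkn1b, Cdkn2c and Cdkn2d), and the cause was not tested. The log2 fold changes then ran from -0.30 to -0.033 for Cdkn1a, -0.37 to -0.25 for Cdkn1b, -0.38 to 0.035 for Cdkn1c, -0.16 to 0.41 for Cdkn2c, -0.42 to -0.35 for Cdkn2d and -0.23 to -0.18 for Cdkn3. Signs turned for Cdkn2c without wild type mouse 1 (-0.16), and for Cdkn1c without wild type mouse 1 (0.035) and without knockout mouse 5 (0.0025). Under the 7 other settings no sign turned. The order of RPKM levels kept all 6 positions with total counts and with the authors' deposited values. No paired analysis was possible because the groups share no replicate number. Depth was least for Cdkn1c, at 37 to 53 counts per library, with a 95% interval of the log2 fold change from -0.88 to 0.53.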
